A study of Mus musculus with 8 samples.

Results

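The 9 genes described here, Dct, Tgds, Gpr180, Cldn10, Dzip1, Dnajc3, Uggt2, Hs6st3 and Ubac2, lie around Abcc4 on mouse chromosome 14. They are 9 of the 18691 genes in the deposited files and were taken by symbol from all 8 libraries, with a gene that a library does not list set to 0. The members were selected on their position and on measured values, the WT against knockout differences in these same libraries, so those differences are given as a description, with no p-value for a member and nothing read from which members passed a threshold. Abcc4 encodes Mrp4, an ABC-family efflux pump for cyclic nucleotides and prostaglandins.

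The study compared epididymal white adipose tissue from mice of 2 genotypes, wild type (WT) and Mrp4-/-. Each genotype had 4 libraries, all from C57BL/6J mice at the age of 16 weeks. No treatment is named in the labels. Which strain the Mrp4-/- allele was made in, how it disrupts Abcc4 and how often the line was crossed to C57BL/6J could not be taken from the labels.

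Abcc4 itself did not separate the libraries by label. Its level, in FPKM (fragments per kilobase of transcript, adjusted for library depth), was 3.59, 3.33, 3.81 and 3.33 in WT replicates 1 to 4. In replicates 1, 2, 4 and 5 labelled Mrp4 knockout it was 3.54, 3.68, 3.89 and 3.31. The groups overlapped throughout, with means of 3.52 ± 0.232 in WT and 3.61 ± 0.244 in the others (SD, n = 4), and the log2 fold change was -0.05 (SE 0.08). The transcript level therefore gives no check of the label, since how the allele disrupts the gene is not known here, and the second group is called the libraries labelled knockout throughout. One deposited value of Abcc4 did differ by label: the authors' average transcript length was 5713 to 5729 bases in WT and 5581 to 5689 bases in the libraries labelled knockout. Among 3062 tested genes with a varying length, 65 (2.12%) were shorter in every library labelled knockout and 93 (3.04%) were longer in every one. None of the 9 neighbours had a length that varied (0 members).

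Expected counts summed to between 14064681 and 14700114 per library. Of all 18691 genes, 14257 were tested and 2606 passed an adjusted p of 0.05 with edgeR, of which 55.95% were higher in the libraries labelled knockout (74.1% when scaled by library size alone). The number passing was 1172 to 1654 when any 1 library other than WT replicate 2 was left out and 3683 without that library. Adipocyte markers, led by Fabp4 and Cfd, summed to 28700 to 32740 FPKM in WT and 23170 to 27830 in the libraries labelled knockout. Of these 10 markers Lep was higher, Plin1, Retn and Cfd were lower and 6 did not pass. The sum follows mainly Cfd, which went from 9813 ± 2510 to 3466 ± 1452 FPKM. Fabp4, which did not pass, went from 10600 ± 1513 to 11970 ± 1891. Of 16 liver markers 15, Alb among them, were higher and 0 lower in the libraries labelled knockout (Hp did not pass), with a median log2 fold change of 3.87 over the list. Alb went from 26.03 ± 9.75 to 467 ± 107 FPKM. The summed levels of 1818 to 2050 FPKM in WT are mostly Hp, at 1832 ± 124. In the libraries labelled knockout the sums were 2090 to 3398 FPKM and Hp was at 1443 ± 389, from 914.6 to 1823, so other liver markers made up more of the sum. Of 9 macrophage markers 5 (Emr1, Cd68, Itgax, Ctss and Mpeg1) were higher and 0 lower, with sums of 888.7 to 1405 against 707 to 832.5 FPKM. WT replicate 2 stood apart in epididymal markers, led by Crisp1 and Spink8, which summed to 18.9 FPKM there and to 0.77 to 1.80 in the other libraries. The part of these differences in the members' values was not tested. In whole tissue, fewer cells of a type and less RNA per cell cannot be told apart.

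A mouse made by gene targeting can keep, beside the altered gene, a stretch of chromosome from the strain in which the allele was built, and genes in that stretch then come from that strain in every animal of the line. The genes next to Abcc4 have unlike jobs. Dct (dopachrome tautomerase) works in melanin synthesis; Cldn10 is a tight-junction claudin; Dnajc3 (p58IPK), Uggt2 and Ubac2 belong to the endoplasmic reticulum (ER), where proteins are folded, checked and, when misfolded, sent for degradation. Gpr180 is an orphan membrane protein of the G protein-coupled receptor type, Tgds is named for dTDP-glucose 4,6-dehydratase, Dzip1 acts at the base of the primary cilium and in Hedgehog signalling, and Hs6st3 adds sulfate to heparan sulfate chains. The files hold no genotypes, so the strain of origin around Abcc4 was not tested.

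The promoter windows of 3 members are shown because these genes had the lowest ratios to WT (Dct and Cldn10) or hold an ER stress response element (Dnajc3). All are from RefSeq in build GRCm38.p6, 5′ to 3′ on the gene's strand, from 250 bases before to 50 bases after the start. They are reference sequence and not that of the animals. All 9 members were found in the RefSeq table, with 12 windows. The Dct window is chr14:118052197-118052496, minus strand, and capitals mark the M-box core, the melanocyte promoter element TCATGTG, on either strand:
Dct: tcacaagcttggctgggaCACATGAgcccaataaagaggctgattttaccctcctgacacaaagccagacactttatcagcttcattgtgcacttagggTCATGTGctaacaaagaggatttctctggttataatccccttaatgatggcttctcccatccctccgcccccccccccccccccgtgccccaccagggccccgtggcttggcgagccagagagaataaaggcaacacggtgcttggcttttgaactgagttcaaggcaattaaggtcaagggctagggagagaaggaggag
The Dnajc3 window is chr14:118937682-118937981, plus strand, and capitals mark the ER stress response element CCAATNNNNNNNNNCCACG:
Dnajc3: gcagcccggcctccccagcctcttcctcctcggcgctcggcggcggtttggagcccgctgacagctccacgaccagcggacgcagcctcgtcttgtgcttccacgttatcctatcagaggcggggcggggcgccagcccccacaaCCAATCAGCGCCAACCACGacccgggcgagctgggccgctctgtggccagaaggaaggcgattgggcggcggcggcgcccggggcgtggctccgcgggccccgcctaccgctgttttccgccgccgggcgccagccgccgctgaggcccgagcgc
The 2 Cldn10 windows are chr14:118787621-118787920 and chr14:118854700-118854999, both on the plus strand, and capitals mark CG dinucleotides:
Cldn10 upstream start: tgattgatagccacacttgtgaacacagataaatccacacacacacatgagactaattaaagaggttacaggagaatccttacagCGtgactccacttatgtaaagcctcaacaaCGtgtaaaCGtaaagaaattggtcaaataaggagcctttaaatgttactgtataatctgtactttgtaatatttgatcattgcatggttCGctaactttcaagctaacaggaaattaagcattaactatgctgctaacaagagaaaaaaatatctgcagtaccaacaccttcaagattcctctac
Cldn10 downstream start: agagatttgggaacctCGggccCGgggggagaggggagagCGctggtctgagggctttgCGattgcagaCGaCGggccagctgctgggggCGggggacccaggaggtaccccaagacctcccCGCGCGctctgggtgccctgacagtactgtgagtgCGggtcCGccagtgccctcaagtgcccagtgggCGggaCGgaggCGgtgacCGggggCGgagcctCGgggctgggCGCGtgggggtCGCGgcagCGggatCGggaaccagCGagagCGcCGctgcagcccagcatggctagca

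Both motifs were searched on both strands. The M-box core was found in 1239 of 32851 promoter windows (3.77%). The Dct window held 2 copies. The first lay 232 to 226 bases before the start, on the strand opposite to the gene's. The other lay 151 to 145 bases before it, on the gene's own strand. In the upstream Cldn10 window there was 1 copy, 207 to 201 bases before the start, and 0 in the windows of the other members. The ER stress response element was in 39 windows (0.119%), among them Dnajc3 with 1 copy 105 to 87 bases before the start and no other member. A match is a description of the letters in this window only. By CG dinucleotides, the windows of Dct (5) and of the upstream Cldn10 start (4) lay below the median of 7 over all windows. Those of Dnajc3 (39), Hs6st3 (41), Ubac2 (32), Uggt2 (30), Gpr180 (29), the downstream Cldn10 start (27), Tgds (21) and the 3 Dzip1 starts (24, 12 and 14) lay above it. The deposited table gives 1 level per gene, so reads from the 2 Cldn10 starts cannot be told apart.

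Among the 8 members that passed the filter on low counts, 5 (Dct, Cldn10, Dnajc3, Gpr180 and Ubac2) were past the threshold in the lower direction and 0 in the higher, beside 8.05% and 10.2% of all tested genes. Dct passed that filter through its WT libraries alone. FPKM ranges lay wholly below WT for 4 members (Dct, Cldn10, Gpr180 and Ubac2) and wholly above for 0, beside 7.08% and 16.4% of tested genes. Because the members were chosen with this contrast known, nothing is read from these counts. The ninth member, Hs6st3, was not tested.

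**Figure D1:**
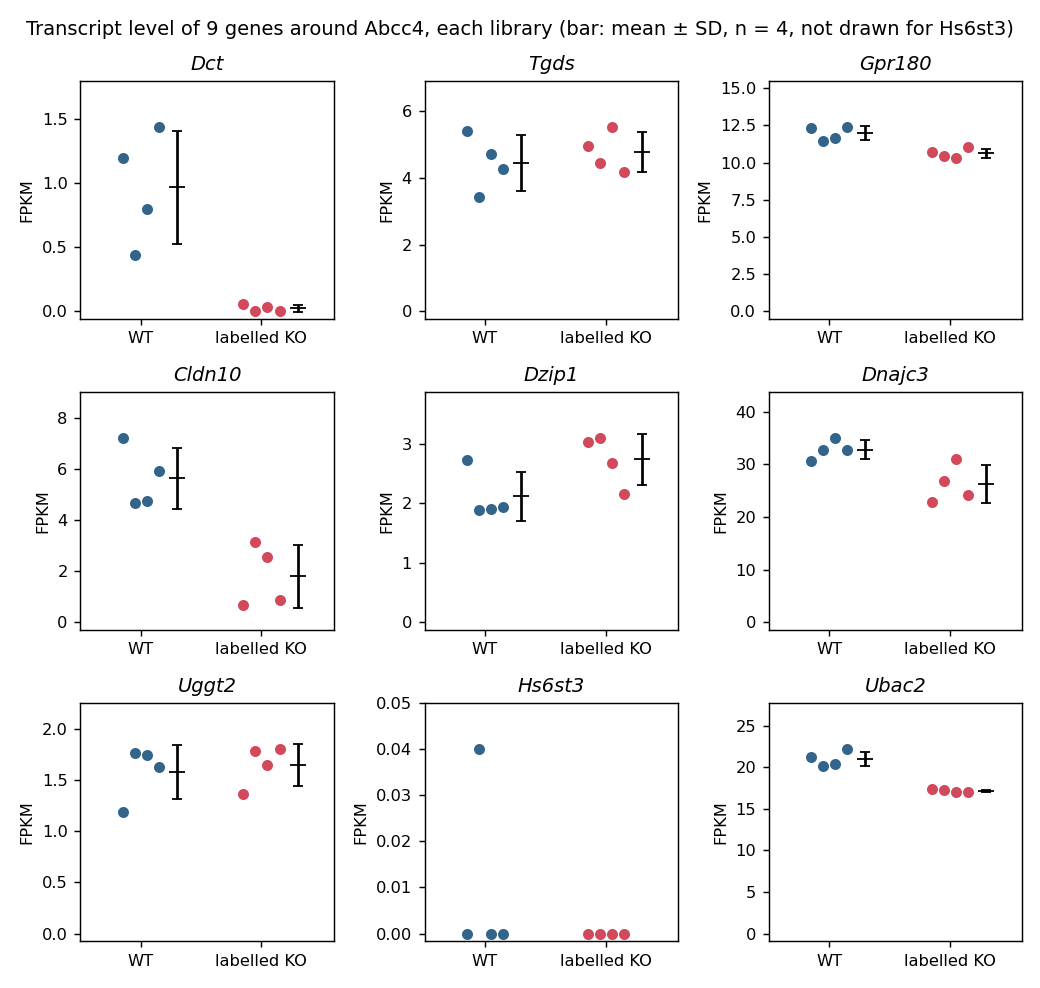
FPKM of each of the 9 genes in each library (points), for WT and for the libraries labelled knockout, genes in chromosome order. Bars beside the points are mean ± SD over 4 libraries and are not drawn for Hs6st3. Each panel has its own linear axis. Dct is at 0 to 0.06 in the libraries labelled knockout against 0.44 to 1.44 in WT, and Ubac2, Gpr180 and Cldn10 also show no overlap, while Tgds, Dzip1, Uggt2 and Dnajc3 overlap.

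Dct was at or near 0 in the libraries labelled knockout. Its FPKM was 1.2, 0.44, 0.80 and 1.44 in WT replicates 1 to 4, from 39, 14, 26 and 46 expected counts. In labelled knockout replicates 1 and 4 it was 0.06 and 0.03, from 2 and 1 counts, and replicates 2 and 5 did not list it. No library labelled knockout reached the lowest WT library. Summed over the groups, 125 counts stood against 3 at near-equal total depth, a ratio of 41.7 with an exact 95% interval of 13.9 to 204.8 that covers counting error only. This interval pools the libraries of each group and leaves out the spread between them. It is no test, since Dct was selected on this contrast. The fitted log2 fold change of -5.23 (SE 0.68) depends on the prior count used for libraries at 0. WT libraries varied among themselves by over 3 times, with a mean of 0.97 ± 0.441 FPKM (SD, n = 4), so Dct was a low transcript in WT too.

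Of 16 other genes of melanin synthesis and melanocytes 9 passed the filter on low counts and were tested. Of these 1 was higher, 0 were lower and 8 did not pass. Of all tested genes 10.2% were called higher and 8.05% lower, and 9 genes are too few to differ from those shares. The median log2 fold change was -0.03, beside -0.00297 for all tested genes. Tyr, the tyrosinase that starts melanin synthesis, was at 3.17 ± 0.715 FPKM in WT and 3.14 ± 0.207 in the libraries labelled knockout (log2 fold change -0.07, SE 0.15). Levels of Mitf, the melanocyte transcription factor, were 4.07 ± 0.0954 and 4.09 ± 0.304 FPKM. Slc24a5, a melanosome ion exchanger, had 2.64 ± 0.534 and 2.58 ± 0.307 FPKM. Pmel, which forms the fibrils of the melanosome, was low in both groups, at 0.398 ± 0.181 and 0.390 ± 0.0535 FPKM. Kit, a receptor of melanocytes and also of mast cells, was the 1 gene that rose, from 3.34 ± 0.827 to 6.22 ± 0.580 FPKM (edgeR adjusted p = 0.0085). Tyr and Slc24a5 were detected in every library, whereas Tyrp1 had 6 counts over all 8 libraries and Mlana had 2. Sox10, a transcription factor of the melanocyte lineage and of Schwann cells, was not tested because of its low counts (76 in all). It had 0.23 to 0.50 FPKM in WT and 0.10 to 0.21 in the libraries labelled knockout, ranges that do not overlap, as for Dct.

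**Figure D2:**
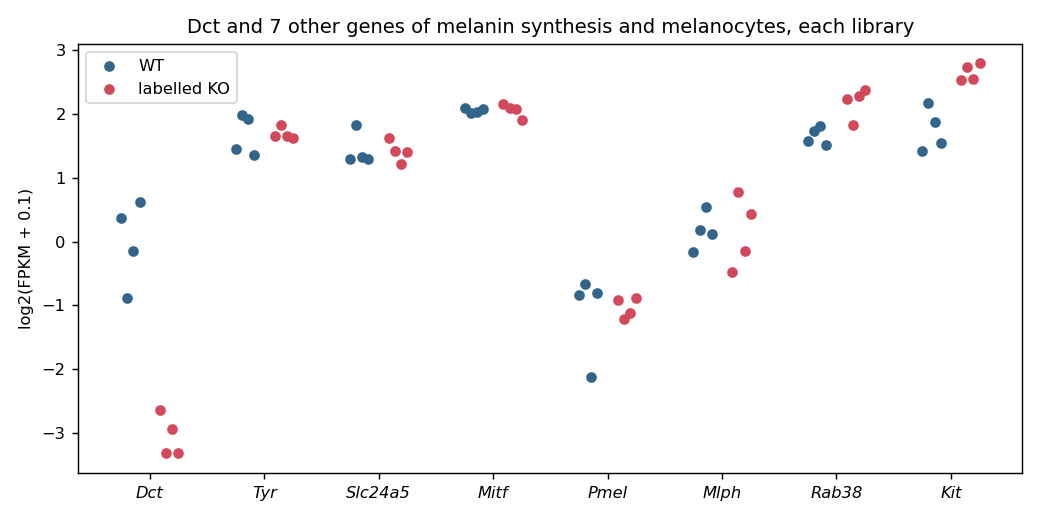
Level of Dct and of 7 other pigment-cell genes as log2(FPKM + 0.1), 1 point per library, WT and libraries labelled knockout side by side. The 4 Dct points of the libraries labelled knockout lie below all WT points, whereas the groups overlap for Tyr, Slc24a5, Mitf, Pmel and Mlph, and for Rab38 and Kit the libraries labelled knockout lie higher.

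Cldn10 was lower in every library labelled knockout than in any WT library. Claudin-10 forms paracellular ion pores in epithelia. WT replicates 1 to 4 had 7.22, 4.69, 4.76 and 5.93 FPKM. Labelled knockout replicates 1, 2, 4 and 5 had 0.68, 3.15, 2.55 and 0.86, so replicates 1 and 5 were the lowest. Means were 5.65 ± 1.19 and 1.81 ± 1.23 FPKM (SD, n = 4), and the log2 fold change was -1.70 (SE 0.42), or 69.1% lower. The counts behind these values are small, 61 to 95 in WT and 9 to 42 in the others.

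Of 17 other claudin and tight-junction genes 14 were tested. Of these 1 was higher, 0 were lower and 13 did not pass. Of all tested genes 10.2% were called higher and 8.05% lower, and 14 genes are too few to differ from those shares. The median log2 fold change was 0.23, beside -0.00297 for all tested genes. The gene that passed was Cldn2, a pore-forming claudin of leaky epithelia, at 0.148 ± 0.165 FPKM in WT and 1.48 ± 1.34 in the libraries labelled knockout (log2 fold change 3.23, SE 0.86, edgeR adjusted p = 0.0334); it passed in 2 of 8 fits with 1 library left out. Cldn5, the endothelial claudin, had the highest level, 87.5 and 128 FPKM, and did not pass.

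Mesothelium, the epithelial sheet over the fat pad, is a tissue in which claudins are found. Its markers, taken as a sum, were lower in some of the same libraries. Summed over 12 markers they came to 308.6, 231.0, 344.8 and 224.1 FPKM in WT replicates 1 to 4. In labelled knockout replicates 1, 2, 4 and 5 the sums were 105.0, 228.7, 235.6 and 173.3. Replicates 1 and 5, with the lowest sums, also had the lowest Cldn10, while replicates 2 and 4 had sums within the WT range and Cldn10 below every WT value. The sum hides unlike markers. Upk3b was at most 71.7 FPKM in the libraries labelled knockout and at least 73.01 in WT, and Wt1 at most 7.84 and at least 9.28. Both thus lay below every WT value in replicates 2 and 4 too, as 7.08% of tested genes did in all libraries labelled knockout. The other markers overlapped between the groups. Of the 12 markers tested 1 fell, 0 rose and 11 did not pass, beside 8.05% of all tested genes called lower and 10.2% higher. The median log2 fold change was -0.69, and no marker in the files was at 0. The marker that fell was Wt1, a mesothelial transcription factor, from 14.04 ± 3.19 to 5.97 ± 1.88 FPKM (log2 fold change -1.30, edgeR adjusted p = 0.0101). The 2 markers with the highest levels, Upk3b (89.5 and 51.3 FPKM) and Cldn15 (34.2 and 38.2 FPKM), did not pass. Their part in the level of Cldn10 was not tested.

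**Figure D3:**
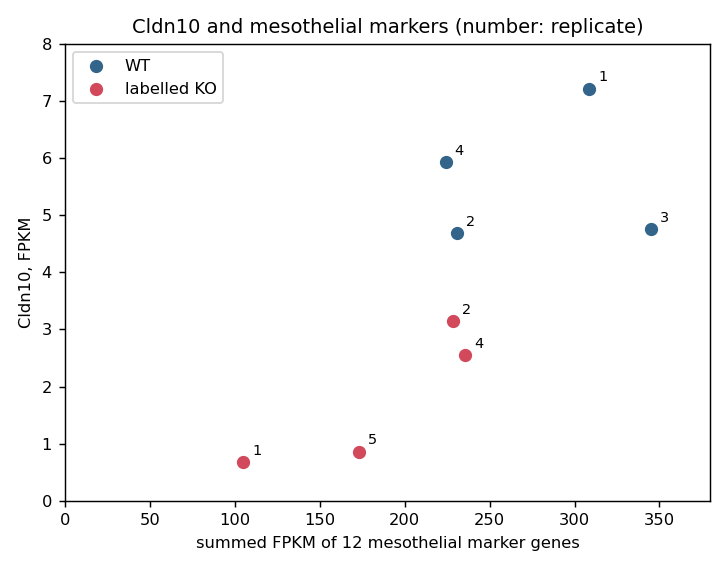
Cldn10 FPKM (vertical axis) against the summed FPKM of 12 mesothelial markers (horizontal axis), 1 point per library with its replicate number. Labelled knockout replicates 2 and 4 lie at marker sums of 228.7 and 235.6, beside WT replicates 2 and 4 at 231.0 and 224.1, and below them in Cldn10. The sum does not show single markers, of which Upk3b and Wt1 lay below every WT value in replicates 2 and 4 as well.

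Of the 3 ER members, Dnajc3 and Ubac2 were lower in the libraries labelled knockout and Uggt2 overlapped between the groups. Dnajc3 encodes a J-domain co-chaperone of the ER Hsp70 protein BiP that also restrains the stress kinase PERK. It had 30.68, 32.78, 34.99 and 32.79 FPKM in WT replicates 1 to 4. In labelled knockout replicates 1, 2, 4 and 5 the values were 22.93, 26.82, 31.09 and 24.29. Replicate 4 lay inside the WT range and the other 3 below it. Means were 32.8 ± 1.76 and 26.3 ± 3.59 FPKM. The log2 fold change fitted to the counts was -0.39 (SE 0.10), or 23.4% lower, and -0.32 with library size alone.

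Ubac2, an ER membrane protein with a ubiquitin-associated domain that takes part in ER-associated degradation, had closely spaced values in the libraries labelled knockout. WT replicates 1 to 4 had 21.22, 20.21, 20.38 and 22.16 FPKM. The libraries labelled knockout had 17.34, 17.24, 16.97 and 17.07. The highest of these was 17.34 against a lowest WT value of 20.21, and their SD was 0.166 FPKM around a mean of 17.2, against 0.895 around 20.99 in WT. Its log2 fold change was -0.36 (SE 0.06), or 21.9% lower.

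Uggt2 encodes a glucosyltransferase relative of Uggt1, the sensor that marks unfolded glycoproteins for another round of folding. WT replicates 1 to 4 had 1.19, 1.76, 1.74 and 1.63 FPKM, and the libraries labelled knockout 1.36, 1.78, 1.65 and 1.80. Each group had 1 library below the other 3, and the ranges overlapped. The means were 1.58 ± 0.266 and 1.65 ± 0.203 FPKM, with a fitted log2 fold change of -0.0035 (SE 0.15) whose sign is positive with library size alone (0.06) or upper-quartile factors (0.01). Its paralog Uggt1 was at 11.9 ± 1.09 and 12.7 ± 1.47 FPKM.

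The wider ER lists are read beside the 8.05% of all tested genes called lower. Of 28 genes of glycoprotein folding and ER-associated degradation, 0 rose, 3 (10.7%) fell and 25 did not pass, with a median log2 fold change of -0.06. Derl1, a channel component of the degradation pathway, fell from 97.8 ± 2.99 to 73.2 ± 8.58 FPKM (log2 fold change -0.49, edgeR adjusted p = 0.00851). Ganab, the glucosidase that trims new glycans, fell by 0.29 on the log2 scale (edgeR adjusted p = 0.0275), and Ufd1l, a partner of the extraction ATPase Vcp, fell by 0.25 (edgeR adjusted p = 0.0381). Each of the latter pair passed in 2 of 8 fits with 1 library left out. Of 20 genes of ER J-proteins, their Hsp70 partners and the PERK branch, 0 rose, 1 (5%) fell and 19 did not pass, with a median of -0.05. Both shares are near that of all tested genes. The gene that fell was Xbp1, a transcription factor of the unfolded protein response, from 110 ± 7.06 to 87.9 ± 6.48 FPKM (edgeR adjusted p = 0.0127). Hspa5, which encodes BiP, was at 195 ± 29.0 and 175 ± 36.4 FPKM, and Eif2ak3, which encodes PERK, at 7.92 ± 0.838 and 8.37 ± 0.382; neither passed.

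Gpr180 was modestly lower with little spread. WT replicates 1 to 4 had 12.36, 11.46, 11.67 and 12.39 FPKM. The libraries labelled knockout had 10.70, 10.46, 10.32 and 11.03. Ranges did not overlap, but the gap between the lowest WT library and the highest of the others was small, 11.46 against 11.03. Means were 11.97 ± 0.476 and 10.6 ± 0.311 FPKM. The log2 fold change fitted to the counts was -0.24 (SE 0.07), and -0.17 with library size alone.

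Tgds lies between Dct and Gpr180 in gene order and overlapped between the groups. Its FPKM was 5.40, 3.42, 4.73 and 4.26 in WT replicates 1 to 4 and 4.97, 4.46, 5.53 and 4.19 in the libraries labelled knockout. The ranges overlapped, the means were 4.45 ± 0.832 and 4.79 ± 0.591 FPKM, and the log2 fold change was 0.04 (SE 0.15). Among 18 genes of nucleotide sugar metabolism, the field of sugar donors to which its named reaction belongs, 0 rose, 5 (27.8%) fell and 13 did not pass. Their median was -0.13, and 8.05% of all tested genes were called lower. Pmm1, a phosphomannomutase, fell from 42.6 ± 13.6 to 23.6 ± 1.36 FPKM (edgeR adjusted p = 0.0157). Ugp2, which makes UDP-glucose, fell from 35.0 ± 3.81 to 28.8 ± 1.93 FPKM (edgeR adjusted p = 0.0267) and passed in 4 of 8 fits with 1 library left out. Gfpt1 and Pmm2, named after their values were seen, fell by 0.22 and 0.23 on the log2 scale and passed in 1 and 2 of those fits.

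Dzip1 was the member with the highest ratio in the libraries labelled knockout. WT replicates 1 to 4 had 2.73, 1.89, 1.90 and 1.94 FPKM, so replicate 1 lay well above the other WT libraries. The libraries labelled knockout had 3.03, 3.09, 2.67 and 2.15, and their range overlapped that of WT through WT replicate 1. Means were 2.12 ± 0.411 and 2.74 ± 0.432 FPKM. The log2 fold change fitted to the counts was 0.30 (SE 0.16), and 0.37 with library size alone. Of 22 Hedgehog and cilium genes 1 rose, 1 fell and 20 did not pass, with a median of 0.02. Among all tested genes 10.2% were called higher and 8.05% lower. The gene that fell, Smo, the signal transducer of the pathway, had 23.6 ± 0.404 and 21.2 ± 0.761 FPKM (edgeR adjusted p = 0.0262) and passed in 3 of 8 fits with 1 library left out. The gene that rose was Hhip, a Hedgehog antagonist, named after its values were seen; it was near the detection limit, at 0.0125 ± 0.0126 and 0.118 ± 0.0320 FPKM.

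Hs6st3 was at the limit of detection. A single count in WT replicate 2 (0.04 FPKM) was its only trace in 8 libraries, below the floor of 3 counts, so no fold change is given. Of 28 genes of heparan sulfate synthesis 24 were tested. Of these 4 rose, 1 fell (20.8% called in all) and 19 did not pass, with a median of -0.02. Of all tested genes 10.2% were called higher and 8.05% lower. Glce, the epimerase that shapes the chain before sulfation, rose from 6.23 ± 0.115 to 8.70 ± 0.139 FPKM (edgeR adjusted p = 0.00197). The core proteins Sdc3, from 25.8 ± 2.02 to 37.4 ± 3.50 FPKM (edgeR adjusted p = 0.00555), and Gpc1, from 8.98 ± 3.73 to 26.3 ± 4.90 FPKM (edgeR adjusted p = 0.00642), also rose. Ndst1 (rise of 0.27 on the log2 scale) and Sdc4, which fell by 0.57, were named after their values were seen and passed in 2 of 8 fits each with 1 library left out. The family member Hs6st1 was at 14.9 ± 1.65 and 17.3 ± 0.848 FPKM, and Hs6st2 at 0.0825 and 0.0975.

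Levels spanned a wide range among these neighbours. In WT the order of mean FPKM was Dnajc3, Ubac2, Gpr180, Cldn10, Tgds, Dzip1, Uggt2, Dct and Hs6st3. Cldn10 and Tgds overlapped in that order, as did Uggt2 and Dct, and the other neighbours in the order down to Dct did not. In the libraries labelled knockout Cldn10 came after Tgds and Dzip1. It overlapped Dzip1 and Uggt2 there, because its own values ran from 0.68 to 3.15 FPKM.

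The order along the chromosome mixes the members' roles and values. Counted in protein-coding genes from Abcc4 in RefSeq order, with negative numbers toward lower coordinates, Dct lies at -5, Tgds at -4, Gpr180 at -3, Cldn10 at 1, Dzip1 at 2, Dnajc3 at 3, Uggt2 at 4, Hs6st3 at 5 and Ubac2 at 14. The lower Dct (-5) and Gpr180 (-3) enclose Tgds (-4), and Cldn10 (1) and Dnajc3 (3) enclose Dzip1 (2). The groups overlapped at Abcc4 itself. Of the 10 tested genes just before Abcc4, 2 were called lower and 1 higher; of the 10 just after it, 2 lower and 0 higher, and of the next 10, 1 lower and 0 higher. The 5 lower calls in these 3 windows are the 5 members counted above, which were selected on them.

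Along the whole chromosome, 40 of 488 tested genes (8.20%) were called lower and 59 (12.1%) higher. Of 48 full windows of 10 tested genes, 4 held 3 or more lower calls and 1 window held 5. A list of 23 further genes near Abcc4 had 22 in the files and 16 tested. Of those tested only Gpc6 lies before Abcc4, so the list covers mainly the side after it. On the side before it, 9330188P03Rik, which is not in the list, was called higher (log2 fold change 1.39, mean of 0.855 FPKM). With edgeR, DESeq2 and limma-voom 0 of these 16 passed in either direction; at an unadjusted p of 0.05, each tool gave 2 higher and 3 lower, which with edgeR were Mbnl2 and Dock9, and Ipo5, Pcca and Ggact. Their log2 fold changes ran from -0.37 (Ggact) to 0.44 (Gpr183), with a median of 0.0015. Without WT replicate 2, 3 of the 16 were called lower and 2 higher. The 9 members were set apart from these genes with the contrast known, so the difference between both sets is a description.

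**Figure D4:**
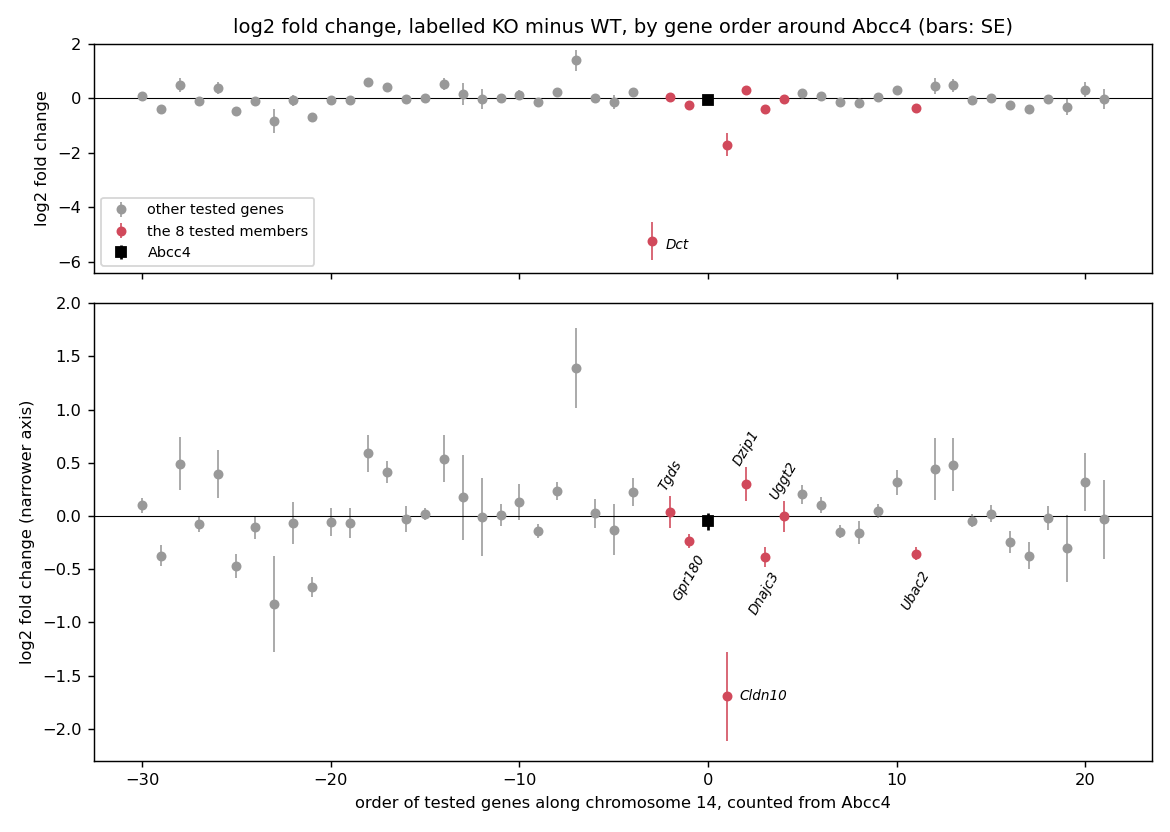
log2 fold change (labelled knockout minus WT) with SE against the order of tested genes along chromosome 14, from 30 before to 21 after Abcc4 at 0, in a full and a narrower vertical axis. Dct (-5.23) and Cldn10 (-1.70) are the lowest of the genes in this range, and Gpr180, Dnajc3 and Ubac2 (-0.24, -0.39 and -0.36) lie among values that other genes of the chromosome also reach.

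How far single libraries carried the values differed by member, given here as a description. With each library left out in turn, the log2 fold change of Dct ran from -6.15 to -4.86, that of Cldn10 from -2.09 to -1.42 and that of Ubac2 from -0.39 to -0.32. Dnajc3 ran from -0.47 to -0.32 and Gpr180 from -0.27 to -0.21. Of these 8 fits Dct and Ubac2 were past the threshold in 8, Cldn10 in 5, Dnajc3 in 3 and Gpr180 in 1, and nothing is read from these counts. The members whose groups overlapped and whose values lay near 0 took either sign, Tgds from -0.08 to 0.15 and Uggt2 from -0.12 to 0.08, and Dzip1 ran from 0.24 to 0.45. Without WT replicate 2, the library with epididymal transcripts, the values were -5.49 for Dct, -1.79 for Cldn10, -0.40 for Dnajc3 and -0.39 for Ubac2.

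**Figure D5:**
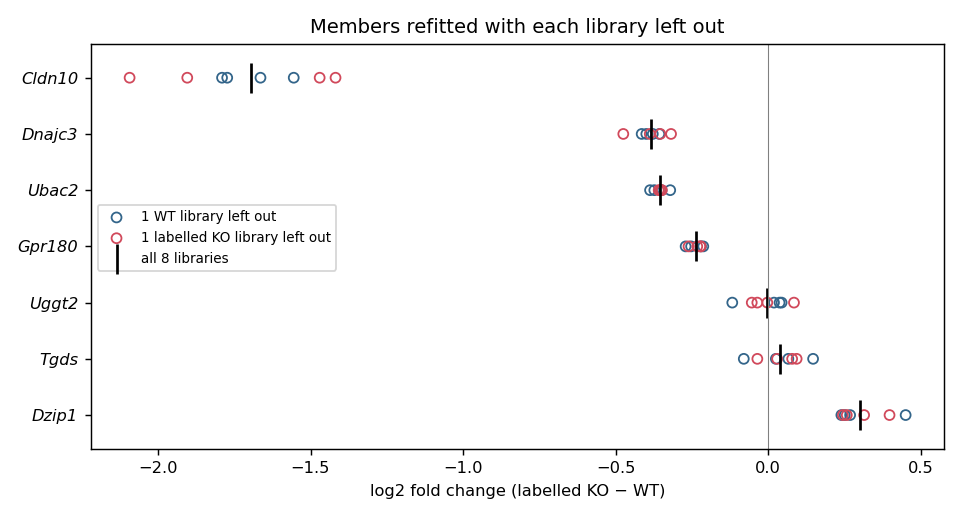
log2 fold change (labelled knockout minus WT) of 7 members with each library left out in turn (circles, blue where a WT library and red where a library labelled knockout was left out) and with all 8 libraries (black bars); Dct, at -6.15 to -4.86, lies outside the axis and is not drawn. Circles of Cldn10, Dnajc3, Ubac2 and Gpr180 all lie below 0, those of Dzip1 above it, and those of Tgds and Uggt2 on both sides.

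The tested gene most like each member over the 8 libraries was found by Pearson's r of log2 CPM, a description over points that share their libraries and their depth. These genes were Leprel4 for Cldn10 (r = 0.977), Slc43a1 for Dnajc3 (0.986), Ppapdc2 for Gpr180 (0.992) and Cluh for Ubac2 (0.991). For the other members they were Xkr8 for Tgds (0.933), Fam78a for Dzip1 (0.904) and Aifm2 for Uggt2 (0.941). With the group means removed, the most alike were Tmem150a for Cldn10 (0.974), Slc43a1 again for Dnajc3 (0.963), Lonp1 for Gpr180 (0.9898) and Agpat3 for Ubac2 (0.987). For Tgds, Dzip1 and Uggt2 they were Tmem255b (0.970), Rcc2 (0.993) and Rhoj (0.9896). Dct was below 1 FPKM in both groups and was left out of this search.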

How the data were processed

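Polyadenylated RNA of 8 libraries, 4 per genotype, was sequenced as paired reads. Per the file headers, the authors deposited for each gene an expected count (an estimate that need not be whole), an FPKM value and a transcript length. The submitters' processing notes name Bowtie2 and build mm9; no source used here names the quantifier or the strand setting, so reads of overlapping antisense genes cannot be told apart. The series-wide table of FPKM held the same values as the sample files.

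Deposited expected counts, between 14064681 and 14700114 per library, were rounded and fitted in R 4.3.3 by edgeR 4.0.16 (filterByExpr, TMM scaling, robust quasi-likelihood F test, genotype only, two-sided), with Benjamini-Hochberg adjustment over 14257 genes and a threshold of 0.05; 4434 genes were removed by the filter. SE was the log2 fold change divided by the square root of F. FPKM values as deposited give the levels. Intervals and the floor of 3 counts cover counting error only. Members and lists were chosen with earlier results of these data known. Genes named are the 9 members, Abcc4, up to 3 genes of lowest p per list with at least 1 FPKM, the most alike gene per member and the 2 highest markers per marker list; 1 gene that the rule names is not reported here, and other genes named in the text were picked for their known role or after their values were seen. Kidney epithelium markers (0 of 3 tested called) and epididymis markers (0 of 1 tested called) were also listed.

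Alternatives were DESeq2 1.42.0, limma 3.58.1 (voom, or trend on log2(FPKM + 1) and log2(FPKM + 0.1)), other scalings and filters, a threshold of 0.01, a replicate block and each library left out. The labels do not say that samples came from separate mice, so p-values measure the spread between these samples, which may be technical. Gene order and promoter windows are from RefSeq GRCm38.p6, which is not the build of the files; only order was taken from its annotation.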

Additional observations from a re-analysis of the deposited data

Results flagged for a closer look

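Of 19 groups of 4 libraries examined (each of 9 members and Abcc4 in either genotype, where listed), 2 held a library far from the other 3, with a gap to the nearest that took up most of the range of the group. About 1 in 20 groups passes that limit by chance where values are normally distributed. That rate does not apply to Hs6st3 in WT, where a single value beside 0 in the others passes whatever its size. WT replicate 1 had 2.73 FPKM of Dzip1 beside 1.89, 1.90 and 1.94 in the other WT libraries, and WT replicate 2 had 0.04 FPKM of Hs6st3, from 1 count, beside 0 in the others.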

How the results depend on the processing

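The members' direction and calls follow from how they were selected, so nothing is read from their counts here. With the replicate block, 141 genes of all tested were called and 1 member was called lower (Dct). That fit compares genotypes within the 3 shared replicate numbers only, because WT replicate 3 and labelled knockout replicate 5 have no partner. Its smaller number of calls cannot be told apart from this loss of power. With an adjusted p of 0.01, 551 genes and 2 members were called. Leaving out 1 library gave 1172 (without WT replicate 4) to 3683 (without WT replicate 2) calls over all genes and 2 to 5 members called lower; in the list of further neighbours it gave 0 to 3 lower and 0 to 2 higher, the most without WT replicate 2. That list had 1 gene called higher with library size alone, 1 with limma on log2(FPKM + 1) and 1 on log2(FPKM + 0.1). The cause was not tested. Same-numbered libraries of both genotypes had correlations of 0.01, -0.07 and -0.13 in their deviations from the group means, and none correlated best with its own number. So few correlations show no pairing by number but cannot show that there was none, and the labels do not say what the numbers mean. The share of calls that were higher was 55.95%, and 74.1% with library size alone, 73.6% and 73.3% with limma on the 2 FPKM scales. Depth limits Dct and Cldn10 in the libraries labelled knockout (0 to 2 and 9 to 42 counts) and leaves Hs6st3 unmeasured.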
